A study of Mus musculus with 2 samples.

Results

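The data described here are those of 10 genes for transcription regulators of lymphocytes: the Sox genes Sox4, Sox12 and Sox13, the Tcf/Lef genes Tcf7 and Lef1, the inhibitor genes Id1, Id2 and Id3, and the E protein genes Tcf3 and Tcf12. They were chosen by name, as the probes whose gene name or synonym was 1 of these 10, out of 31709 names on the array. The choice was made with results of these arrays in view, so all values below are given as a description, with no test. The 10 genes had 15 probes. Of these, 14 probes of 9 genes passed the signal filter: the KO RNA, the WT RNA or both had to be well above background on each array. This filter left 14872 genes in all. Tcf3 is here the gene of E2A, the E protein. The same symbol has also been used for Tcf7l1, so its probes were matched by transcript accession.

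The study compared RNA of Lamtor1-deficient (KO) CD4+ T cells with RNA of wild-type (WT) CD4+ T cells of C57BL/6J mice. Lamtor1 is the subunit of the Ragulator complex that anchors mTORC1 signalling at the lysosome, and the series title places the work in autoimmunity driven by CD4+ T cells. Per the labels' protocols, naive CD4+CD62L+ cells were taken from spleen by magnetic sorting and kept for 5 days on plate-bound antibody to CD3 with antibody to CD28. The medium held recombinant human TGFβ (1 ng/ml) beside IL-2 (50 ng/ml). WT cells were cultured in the same way. The extraction protocol speaks of naive cells, so that the cultured cells were the source of the RNA is an assumption. Which part of Lamtor1 was deleted, which Cre was used, and how many mice gave cells or were pooled are not given in the sources used here.

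Both RNAs were hybridised together on 2 two-colour Agilent mouse arrays, with KO in Cy5 and WT in Cy3 on the first and the dyes exchanged on the second. The labels name the pair as the same biological replicate, so there was 1 RNA extract per genotype, n = 1, and no p-value could be given. Every ± below is the SD of the 2 arrays and covers labelling and hybridisation only. The number of arrays limits the precision of every value. Lamtor1 itself had a mean signal of 283 (Cy5) and 159 (Cy3) in KO RNA, against 925 (Cy3) and 1739 (Cy5) in WT RNA. Its log2 ratio of KO over WT was -1.97 and -1.93 on the 2 arrays, and the remaining KO signal was well over the local background.

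Sox proteins bind DNA through an HMG box, the domain also used by TCF-1 (the product of Tcf7) and LEF-1. TCF-1 and LEF-1 carry T cell development and the naive and memory state, and they can recruit β-catenin or Groucho-type co-repressors. E proteins such as E2A (Tcf3) and HEB (Tcf12) are bHLH activators that bind E-boxes as dimers, and Id proteins lack the basic DNA-binding region and hold E proteins in dimers that cannot bind. In T cells this balance of Id and E proteins is known to set developmental checkpoints, and Id2 and Id3 are known to act in effector, memory and regulatory T cells. Sox4 is known as a TGFβ-induced gene in T cells and Sox13 as a regulator of γδ T cells.

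Of the 9 genes measured, 1 was at least 2-fold higher in KO on both arrays, where 2.46% of all measured genes were (366 of 14872). It was Sox4. None of the 9 genes was at least 2-fold lower on both arrays, against 6.89% of all measured genes (1024 of 14872). Since the genes were picked with this contrast known, nothing is read from these shares. Id2 and Id3 were higher by smaller amounts, Tcf3 was lower by less than 2-fold, and Sox13, Tcf7, Lef1, Id1 and Tcf12 lay within 0.5 of 0 on the log2 scale, as did 68.8% of all measured genes.

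Probe sequences are shown for 1 gene each of the Sox, Id and E protein families, Sox4, Id3 and Tcf3, using for Sox4 and Tcf3 the probe nearest to the 5′ end of the gene. Positions are those of the scanner files, on mouse build mm9. The Sox4 probe lies at chr13:29044482-29044541 (minus strand), the Tcf3 probe at chr10:79875963-79876022 (minus strand), and the Id3 probe at chr4:135700075-135700249 (plus strand). The Id3 coordinates span 175 bases although the probe has 60, which the files give with no exon map. Each line runs 5′ to 3′, in lower case with no capitals because no base is singled out.
Sox4 probe: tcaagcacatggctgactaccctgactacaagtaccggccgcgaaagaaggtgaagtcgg
Id3 probe: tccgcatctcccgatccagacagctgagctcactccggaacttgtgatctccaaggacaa
Tcf3 probe: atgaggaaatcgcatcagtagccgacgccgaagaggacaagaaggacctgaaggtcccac

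No sequence of the 15 probes was found on a second probe of the array. The longest run of bases that any of them shared with a probe of another gene of these families was 13, between this Sox4 probe and the probe of Sox15. Sox15 was not well above background in either RNA on either array. For the remaining 14 probes the longest shared run was 7 to 10 bases.

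Sox4 was the third highest of all 14872 measured genes in KO over WT. Its brightest probe, at chr13:29040826-29040885, had a mean signal of 4226 (Cy5) and 1689 (Cy3) in KO RNA, against 120 (Cy3) and 181 (Cy5) in WT RNA. The local background of that probe was 40 to 42, and its WT signal passed the scanner software's test for being well above background on both arrays. In each dye, the single KO signal was higher than the single WT signal. The log2 ratio was 4.74 on the array that had KO labelled with Cy5 and 4.55 on the other, a mean of 4.64 ± 0.14, or 25.0-fold.

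The other two Sox4 probes gave the same direction and smaller ratios. The middle probe, at chr13:29042856-29042915, had signals of 1174 and 606 in KO RNA, against 98.0 and 147 in WT RNA. Its log2 ratio was 3.10 and 3.19 on the 2 arrays, a mean of 3.14 ± 0.06, or 8.83-fold. The third probe, the one printed above, had signals of 636 and 354 in KO RNA, against 77.9 and 161 in WT RNA. It gave 2.68 and 2.22, a mean of 2.45 ± 0.32, or 5.46-fold. The arrays were far apart on this probe: 4.42% of genes of like brightness had a larger SD. All 3 probes lie on the minus strand within 3716 bases of chromosome 13, so the ratio was highest at the probe nearest the 3′ end and lowest at the probe nearest the 5′ end.

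On all 3 probes the WT signal was low, between 77.9 and 181, so the ratio depends on how the background is treated. With an offset of 1 in place of 50 in the background correction, the mean log2 ratio was 5.26 for the brightest probe, 3.86 for the middle probe and 3.34 for the third. Over 11 other ways of processing, the mean log2 ratio of Sox4 lay between 3.14, the median over its 3 probes, and 5.59, and Sox4 was at least 2-fold higher in all 11.

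**Figure D1:**
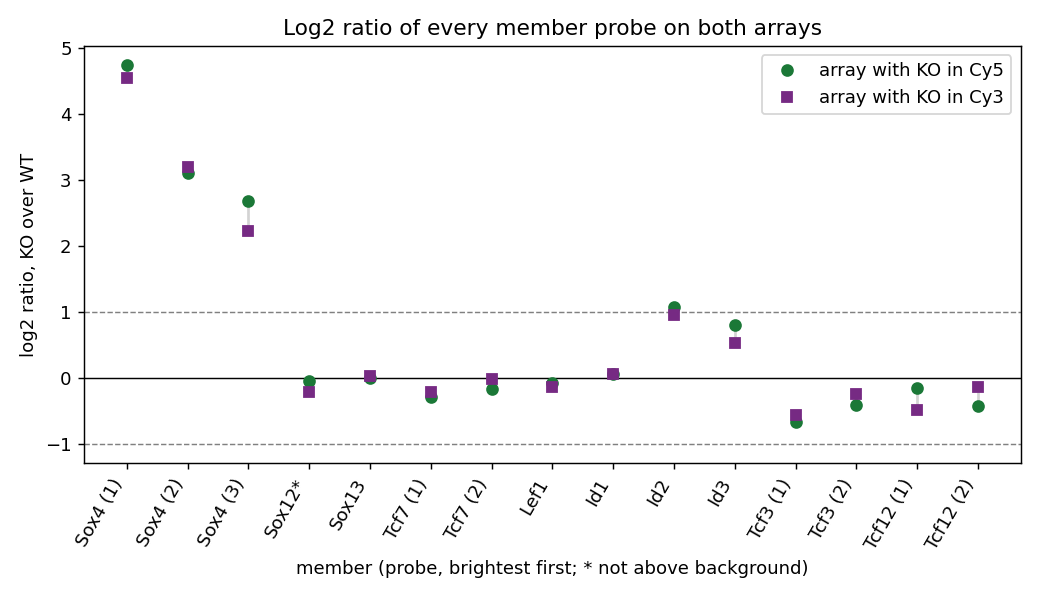
Log2 ratio of KO over WT (vertical axis) for each of the 15 probes (horizontal axis, brightest probe of a gene first), with the array that had KO in Cy5 as circles and the array that had KO in Cy3 as squares, joined by a grey line. Dashed lines mark 2-fold. The 3 Sox4 probes sit between 2.22 and 4.74 on both arrays, Id2 sits at 1.08 and 0.95, and the probes of Tcf3 lie below 0 on both arrays.

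The genes next to Sox4 in the order of mean log2 ratios were named as those closest to it in response. Above it stood Gzma, a granzyme gene of cytotoxic cells, at 5.45 ± 0.35, and LOC100045268 at 5.42 ± 0.39. Below it stood Ndrg4 at 4.62 ± 0.01 and Fcer1g, an adaptor of Fc and NK receptors, at 4.35 ± 0.11. The difference between Sox4 and Ndrg4 was smaller than the SD of Sox4 over the arrays, so their order is not settled.

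Sox13 differed little between the RNAs, and Sox12 could not be read. Sox13 had signals of 183 (Cy5) and 107 (Cy3) in KO RNA, against 149 (Cy3) and 180 (Cy5) in WT RNA. After normalization its log2 signal was 7.44 and 7.23 in KO RNA, against 7.44 and 7.20 in WT RNA, a mean ratio of 0.02 ± 0.02. On each array the log2 ratio of Sox4 was higher than that of Sox13, by 4.74 and 4.51. Sox12, a close relative of Sox4, had signals of 56.0 and 56.2 in KO RNA, against 58.4 and 68.2 in WT RNA. These 4 values were not well above background, so no level or ratio of Sox12 was read.

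The array also held 21 probes for 17 other Sox genes. Of these genes, 14 had no probe well above background in any channel, and 2 had a probe that passed the filter. Sox10, a factor known from neural crest, had a log2 ratio of -0.07 ± 0.29 and was well above background in KO on 1 array only. Sox21 had 0.07 ± 0.06. Neither was 2-fold in any direction.

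**Figure D2:**
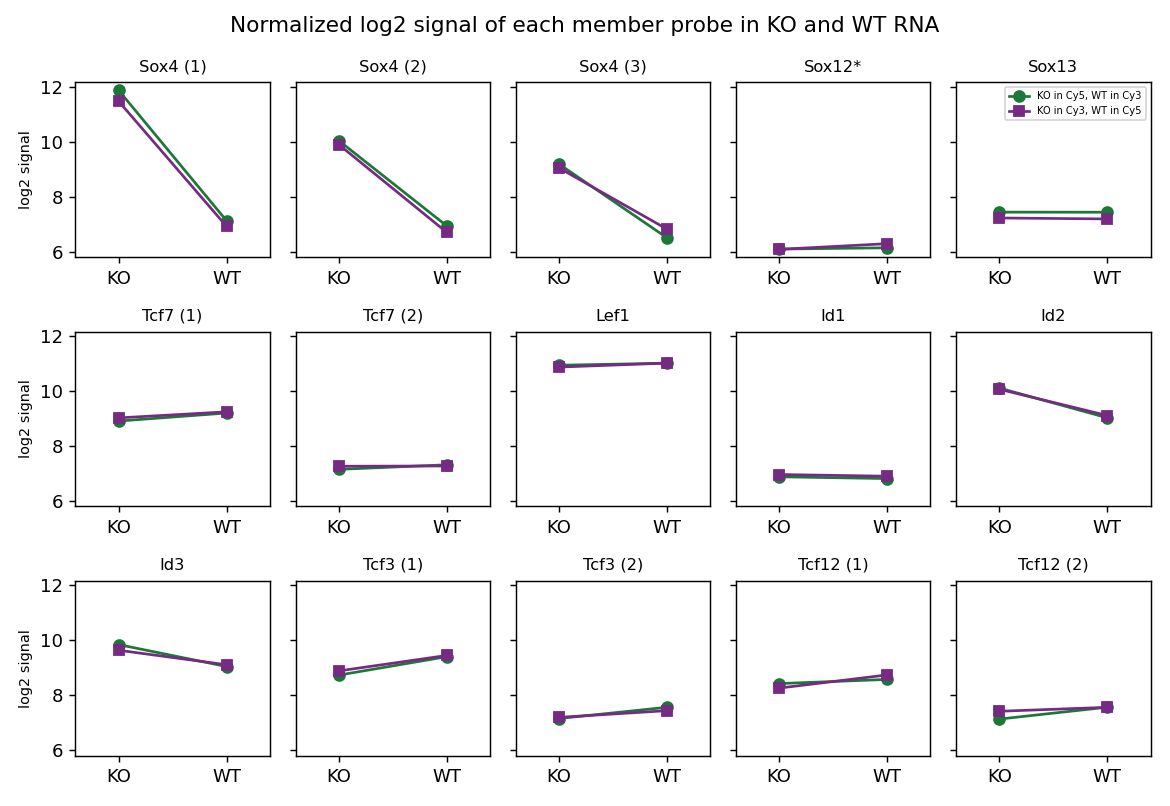
Normalized log2 signal (vertical axis, the same scale in every panel) in KO RNA on the left and WT RNA on the right of each panel, for each of the 15 probes and both dye orientations. Levels are comparable between KO and WT within a panel, not between panels. The Sox4 panels show log2 signals of 11.87 and 11.47 in KO against 7.13 and 6.92 in WT for the brightest probe, while Tcf7, Lef1, Id1 and Sox13 run nearly flat.

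Tcf7 and Lef1 differed little between the RNAs. The brighter Tcf7 probe, at chr11:52066114-52066173, had a log2 signal of 8.90 and 9.02 in KO RNA, against 9.20 and 9.24 in WT RNA. Its mean log2 ratio was -0.26 ± 0.05, below 0 on both arrays. The second Tcf7 probe gave -0.17 and -0.01, a mean of -0.09 ± 0.11. Lef1 had a strong signal, 2225 and 1015 in KO RNA against 1853 and 3612 in WT RNA, so depth of signal did not limit it. Its log2 signal was 10.93 and 10.86 in KO RNA, against 11.01 in WT RNA on both arrays, a mean ratio of -0.11 ± 0.05. The log2 ratios of Tcf7 and Lef1 differed from each other by -0.15 ± 0.10. Of the remaining Tcf/Lef genes, Tcf7l2 had a log2 ratio of -0.14 ± 0.12 on the probe that passed, and Tcf7l1 was not well above background.

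Id2 was the second highest of the 9 genes and the 419th highest of all measured genes. Its probe, at chr12:25778904-25778963, had signals of 1230 (Cy5) and 613 (Cy3) in KO RNA, against 454 (Cy3) and 910 (Cy5) in WT RNA. After normalization the log2 signal was 10.10 and 10.06 in KO RNA, against 9.02 and 9.10 in WT RNA, so the KO values were higher in both dyes. The log2 ratio was 1.08 and 0.95, a mean of 1.02 ± 0.09, or 2.02-fold. Because 1 of the arrays fell just short of 2-fold, Id2 did not meet the rule of 2-fold on both. Sox4, well inside the rule, and Id2, just outside it, are the genes on each side of that limit. Id2 met the rule under 4 of the 11 other ways of processing, which were not independent of each other. The software's processed intensities and the series matrix gave the same ratios. With only the array that had KO in Cy5, the rule was applied to that array alone. The remaining setting was the offset of 1.

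Id3 had signals of 1021 and 458 in KO RNA, against 461 and 893 in WT RNA. The normalized log2 signal was 9.83 and 9.63 in KO RNA, against 9.04 and 9.10 in WT RNA. Its log2 ratio was 0.80 and 0.53, a mean of 0.66 ± 0.19, or 1.58-fold, and 1064th of all measured genes. Of genes of like brightness, 19.9% had a larger SD between the arrays. Id1 had a low signal, 109 and 87.3 in KO RNA against 96.7 and 134 in WT RNA, and a mean log2 ratio of 0.06, with arrays at 0.07 and 0.06. Id4 was not well above background in either RNA. Within each array, the log2 ratio of Id2 was higher than that of Id1 by 1.02 and 0.89, and that of Id3 higher than that of Id1 by 0.73 and 0.47. Under median centring the first difference was 1.06 and 0.06, and the second was 0.78 and -0.33, so Id3 over Id1 did not keep its sign on both arrays. Id2 and Id3 lay 0.35 ± 0.10 apart.

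The E protein genes lay on the other side of 0. The brighter Tcf3 probe, at chr10:79872639-79872698, had signals of 463 (Cy5) and 277 (Cy3) in KO RNA, against 589 (Cy3) and 1126 (Cy5) in WT RNA. Its normalized log2 signal was 8.73 and 8.88 in KO RNA, against 9.40 and 9.44 in WT RNA. The log2 ratio was -0.67 and -0.56, a mean of -0.62 ± 0.08, so Tcf3 was 1.53-fold lower in KO. The second Tcf3 probe, printed above, gave -0.41 and -0.24, a mean of -0.33 ± 0.12, with the same sign and a smaller size. By rank Tcf3 was the 2208th lowest of all measured genes.

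Tcf12 had 2 probes with similar means. The brighter one had a log2 signal of 8.42 and 8.25 in KO RNA, against 8.57 and 8.73 in WT RNA, with log2 ratios of -0.15 and -0.48 and a mean of -0.31 ± 0.23. This was the largest SD of the 9 genes. The second probe gave -0.43 and -0.14, a mean of -0.29 ± 0.20. Its coordinates span 28 bases although the probe has 60, so not all of it is placed. The arrays differed in opposite directions on the 2 probes, so the means were closer than the single values. Tcf4, the third E protein gene, had a log2 ratio of -0.19 ± 0.11.

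Ratios of 2 genes on the same array do not depend on a shift common to both. The log2 ratio of Id2 was higher than that of Tcf3 by 1.75 and 1.51, a mean of 1.63 ± 0.17. Against Tcf12, Id2 was higher by 1.23 and 1.43, a mean of 1.33 ± 0.14. For Id3 the differences were 1.28 ± 0.27 against Tcf3 and 0.98 ± 0.04 against Tcf12. All 4 differences were positive on both arrays, and they kept that sign under the 4 other background and scaling methods for which they were computed. With each array centred on its median in place of the intensity-dependent curve, the means were 1.59, 1.21, 1.26 and 0.88. RNA ratios do not give the amounts of the proteins.

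**Figure D3:**
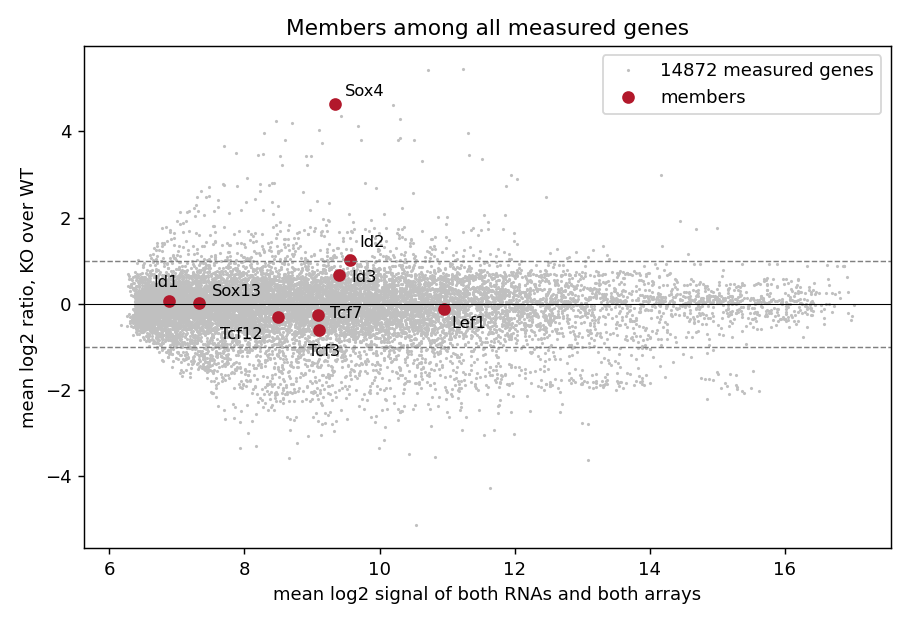
Mean log2 ratio of KO over WT (vertical axis) against mean log2 signal over both RNAs and both arrays (horizontal axis) for 14872 measured genes in grey and the 9 measured genes in red. Dashed lines mark 2-fold. Sox4 stands at 4.64 among the highest genes, Id2 lies at the upper line with 1.02, and the other 7 lie between -0.62 and 0.66.

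The scaling of the arrays moved the ratios. Centring each array on its median moved the median of all measured genes to -0.37, where the processing used here gave -0.02. Relative to that median, the mean log2 ratio was then 4.56 for Sox4, 0.90 for Id2 and 0.56 for Id3. It was -0.69 for Tcf3, -0.33 for Tcf7, and -0.31 for both Lef1 and Tcf12. The arrays disagreed under this scaling: before the shift, Sox4 had 4.92 and 3.45, Id2 had 1.26 and -0.21, and Id3 had 0.97 and -0.60. Lef1 had 0.10 and -1.47, Tcf12 had 0.03 and -1.41, Tcf7 had -0.11 and -1.30, and Tcf3 had -0.49 and -1.65. Lef1 and Tcf12 thus differed in sign between the arrays. The means of Sox13 and Id1, -0.13 and -0.04 there, were 0.25 and 0.34 relative to that median. Id1 was also just below 0, at -0.0064, without background subtraction. The remaining 7 genes kept the sign of their mean under all 11 other ways of processing.

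Promoter sequences are shown for Sox4, Id2 and Id3, the members with the highest ratios, because E proteins bind E-boxes and the 3 genes were higher in KO together. They are RefSeq sequences of build GRCm38.p6, from 250 bases before to 50 bases after the annotated start, which differs from the build of the probe positions. The Sox4 promoter lies at chr13:28953650-28953949 (minus strand), that of Id2 at chr12:25096043-25096342 (minus strand) and that of Id3 at chr4:136143572-136143871 (plus strand). Each line runs 5′ to 3′ on the gene's strand, with E-boxes (CANNTG) in capitals.
Sox4 promoter: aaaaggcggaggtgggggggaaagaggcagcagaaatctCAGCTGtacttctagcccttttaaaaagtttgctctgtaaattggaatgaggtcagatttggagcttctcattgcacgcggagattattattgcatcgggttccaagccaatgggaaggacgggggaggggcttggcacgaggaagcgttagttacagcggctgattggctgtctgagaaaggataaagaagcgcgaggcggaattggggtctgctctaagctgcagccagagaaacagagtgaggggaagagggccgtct
Id2 promoter: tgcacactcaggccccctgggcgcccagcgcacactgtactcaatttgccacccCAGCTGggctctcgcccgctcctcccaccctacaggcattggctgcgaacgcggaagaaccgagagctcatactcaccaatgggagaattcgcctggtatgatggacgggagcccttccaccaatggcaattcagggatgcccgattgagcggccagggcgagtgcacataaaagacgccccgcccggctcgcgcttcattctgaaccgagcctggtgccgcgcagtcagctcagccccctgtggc
Id3 promoter: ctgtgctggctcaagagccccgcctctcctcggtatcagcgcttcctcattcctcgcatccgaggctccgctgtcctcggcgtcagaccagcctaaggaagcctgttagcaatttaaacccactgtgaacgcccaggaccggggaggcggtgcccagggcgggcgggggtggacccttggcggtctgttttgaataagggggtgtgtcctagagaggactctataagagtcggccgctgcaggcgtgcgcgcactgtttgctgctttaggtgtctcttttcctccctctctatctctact

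The Sox4 window held 1 E-box, CAGCTG, whose first base stood at -211 from the start. The Id2 window held 1 E-box of the same letters at -196, and the Id3 window held none. An E-box of any kind was present in 72.3% of 32851 mouse promoter windows of this length, and CAGCTG, which is its own reverse complement, in 16.3%. Of the Smad motifs searched on both strands, Sox4 had CAGACA at -41, a motif found in 21.0% of windows, and Id2 had GGCGCC at -231, found in 11.9%. The Tcf/Lef core CTTTGA (16.0% of windows) and the Sox core ACAAAG (18.7%) were in none of the 3. These are matches of letters only.

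Genes around the regulators were counted from lists drawn up by role, which overlap for Cd4, Il7r and Foxp3. Among 14 measured genes of other HMG-box proteins, 1 was called higher and 1 lower, where called means at least 2-fold on both arrays. They were Hbp1, a cell-cycle repressor, at 1.30 ± 0.11 and the chromatin protein gene Hmgb2 at -1.68 ± 0.33. Of 21 measured genes for β-catenin, its destruction complex and Wnt signal transducers, 1 was called, the Wnt antagonist gene Nkd2, at 1.68 ± 0.14. Ctnnb1, the gene of β-catenin, had 1.19 and 0.96, a mean of 1.07 ± 0.16, and just missed the rule on 1 array. It was named here after its values were seen. Of 18 co-activators and co-repressors of Tcf/Lef factors none was called in either direction. Of all genes, 2.46% were called higher and 6.89% lower, and nothing is read from counts this small. The medians of these 3 lists were -0.09, 0.13 and 0.04, against -0.02 for all genes. Relative to all genes under median centring they were -0.24, 0.23 and 0.02.

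T cell genes linked to Tcf7 and Lef1 in published work went both ways. Of 27 measured, 5 were called higher (18.5%) and 3 lower (11.1%), against 2.46% and 6.89% of all genes. The median was 0.04, and 0.16 relative to all genes under median centring. The 4 with the largest ratios were Bcl6, Foxp3, Il6ra and Klf2. Bcl6, a repressor required for follicular helper cells, stood at 1.89 ± 0.09, and Foxp3, the factor of regulatory T cells, at 1.67 ± 0.31. The IL-6 receptor gene Il6ra stood at 1.61 ± 0.14 and the homing regulator Klf2 at 1.19 ± 0.20. The remaining higher gene was S1pr1, at 1.04 ± 0.01. The 3 lower genes were Cd4 at -1.18 ± 0.05, Zbtb7b at -1.03 ± 0.05 and the IL-7 receptor gene Il7r at -1.02 ± 0.03. S1pr1, Zbtb7b and Il7r were named here after their values were seen.

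Of 23 measured genes linked to E proteins in lymphocytes, 1 was called higher (4.35%) and 4 lower (17.4%), with a median of 0.06. The largest ratios were those of Cdkn1a, the cell-cycle inhibitor p21, at -2.72 ± 0.02, Foxp3, Ctla4, an inhibitory receptor gene, at -1.60 ± 0.34, and Cd4. Of 20 measured genes of other bHLH and E-box factors, 3 were called higher and 3 lower (15.0% each), with a median of 0.07. These included Ahr, the dioxin receptor gene, at 2.59 ± 0.17, Lyl1, which encodes a partner of E proteins, at -1.94 ± 0.04, Bhlhe40 at 1.57 ± 0.15 and the Max partner gene Mxd3 at -1.37 ± 0.03. Each list held called genes of both directions, where 2.46% of all genes were called higher and 6.89% lower. Relative to all genes under median centring, the median of the E protein list was -0.12 and that of the bHLH list 0.06.

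Of 25 measured regulators linked to Id gene transcription, such as TGFβ and BMP receptors, Smads and Egr factors, 7 were called higher (28.0%) and 0 lower. For all genes these shares were 2.46% and 6.89%. The largest were the TGFβ receptor genes Tgfbr1 at 1.97 ± 0.23 and Tgfbr2 at 1.75 ± 0.28, the inhibitory Smad gene Smad7 at 1.91 ± 0.06, and Stat5a, a transducer of IL-2 signals, at 1.73 ± 0.0025. The median was 0.66, and between 0.17 and 0.85 over the 11 other settings. Both cultures had received TGFβ. The list was drawn up with results of these arrays known, so its count is not independent of them.

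Of 20 genes linked to Sox4 and Sox13 in γδ T cells that make IL-17, 14 were on the array and 6 were measured. Maf, a factor of IL-17 and IL-10 producing cells, was called higher at 3.48 ± 0.12. Etv5 at -1.38 ± 0.40 and Il7r at -1.02 ± 0.03 were called lower. The shares called were 16.7% higher and 33.3% lower of only 6 genes, against 2.46% and 6.89% of all genes. The median of the 6 was 0.14, and it changed sign when genes had to be well above background in both RNAs.

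**Figure D4:**
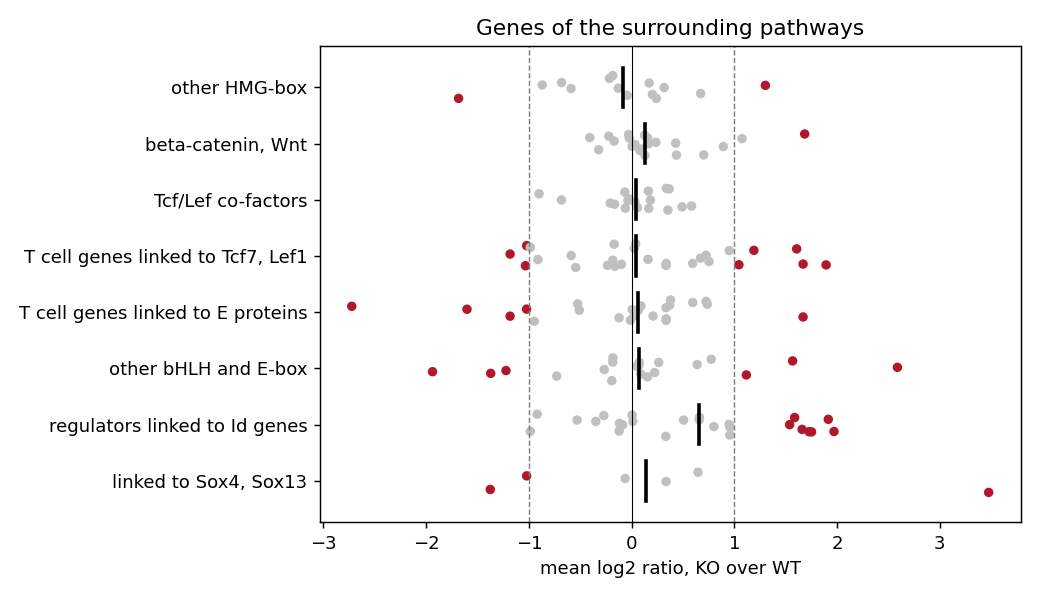
Mean log2 ratio of KO over WT (horizontal axis) for each measured gene of 8 lists of related genes (rows), with called genes in red, other genes in grey and a black bar at each list's median. Dashed lines mark 2-fold, and vertical scatter within a row is for legibility. The list of regulators linked to Id genes has its median at 0.66 and 7 called genes to the right, while the other 7 medians lie between -0.09 and 0.14.

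Markers of other cells differed between the RNAs beside these values. In bulk RNA, fewer cells of a type and less RNA per cell cannot be told apart. Of all measured genes, 2.46% were called higher and 6.89% lower. All 9 CD4 T cell markers on the array were above background in both RNAs, 3 of them were called lower and none higher, and their normalized signals summed to 69240 and 65434 in KO RNA, against 95067 and 93675 in WT RNA. Of 10 measured markers of CD8 T, NK, innate lymphoid and γδ T cells, 7 were called higher and none lower. The sums over the 14 on the array were 8358 and 8160 in KO RNA, against 1676 and 1658 in WT RNA. Fcer1g and Xcl1 made up 63.8% and 65.5% of the KO sums, against 16.8% and 17.9% of the WT sums. In WT RNA, 7 of the 14 were above background on neither array. The CD8 genes went opposite ways: Cd8a was higher on both arrays, at 0.67 ± 0.03, and Cd8b1 lower on both, at -0.55 ± 0.01. Fcer1g, Xcl1, Cd8a and Cd8b1 were named here after their values were seen. Gata2 of that list was not above background in either RNA.

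Of 10 measured myeloid markers 3 were called higher and 1 lower, against 2.46% and 6.89% of all measured genes. The sums over the 14 on the array were 37881 and 37307 in KO RNA, against 24123 and 24217 in WT RNA. Cd14 and Adgre1 were not above background in either RNA. Siglech and Itgam, at log2 ratios of 0.82 ± 0.02 and 0.70 ± 0.07, made up 85.2% and 86.5% of the KO sums, against 76.4% and 78.4% of the WT sums. The called genes were S100a9 at 3.96 ± 0.28, S100a8 (at least 4.92-fold higher), Lyz1 (at least 2.87-fold higher) and H2-Ab1 at -1.90 ± 0.07, with S100a9 well above background in WT RNA on 1 array and S100a8 and Lyz1 on none. These 6 genes were named after their values were seen. Of 8 B cell markers 2 were measured and none called, with sums of 929 and 891 in KO RNA, against 800 and 754 in WT RNA. The B cell genes Cd79a, Ebf1 and Ighm were not above background in either RNA. The part of other cells in the ratios of Sox4, Id2, Id3 and Tcf3 was not tested.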

How the data were processed

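The deposited scanner files were made, per the file headers, with Agilent Feature Extraction 10.7.3.1, whereas the submitters' processing notes name version 10.5.1.1. Per the file headers, the deposited files give, for Cy3 and for Cy5, a mean spot intensity and a median intensity around the spot. The deposited series matrix holds the authors' log10 ratio of Cy5 over Cy3: all 44397 values on each array equalled the software's own ratio within 1e-09, with a median of 0.

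Each array had 44397 spots, 1377 of them controls, and 39429 probes. Median signals were 68.5 to 76.4 over local backgrounds of 38 to 43, 43.7% to 51.7% of spots were well above background per channel, and none was saturated. Intensities were background-corrected (normexp, offset 50) and loess-normalized array by array (limma 3.58.1, R 4.3.3), leaving out control spots and the 206 and 214 flagged spots. Ratios were turned to KO over WT and averaged over the arrays, and levels were scaled with Aquantile. The brightest probe stood for a gene. A gene was called if it differed at least 2-fold in 1 direction on both arrays and 1 of its RNAs, or both, stood well above background on each array. The normalization was also run on simulated arrays, which had as many probes set higher as set lower. In these data more genes were called lower than higher, so that run cannot decide between the ways of scaling. Probes were named by RefSeq accession, symbol or synonym, and the rest kept the file's name (9249 of 39429).

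The members and the gene lists were chosen with earlier results of these data known. Named genes were the members and their families, at most the 4 called genes with the largest ratio from each list, and the 2 genes next above and below the highest member. Beyond this rule, Ctnnb1 and further genes of the Tcf7 and Lef1 list and of the marker lists were named after their values were seen. The alternatives were another offset, no background subtraction, the software's processed intensities, the series matrix, median centring, 2 filters on dim probes, the median over probes, each array alone, and flagged spots kept. A marker of the B cell list is not reported here.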

Additional observations from a re-analysis of the deposited data

How the results depend on the processing

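The number of the 9 genes at least 2-fold higher in KO was 2, with Id2 beside Sox4, when the offset was 1, with the software's processed intensities, with the series matrix and with only the array that had KO in Cy5. It was 1 under the other 7 settings, and none of the 9 genes was called lower under any of the 11. For all measured genes, 366 were called higher and 1024 lower. The number higher was 609 with an offset of 1, 867 with the processed intensities and with the series matrix, 555 with only the array that had KO in Cy5, and 111 under median centring, where 881 were lower. The number lower was 1613 with the processed intensities and with the series matrix. Single probes, genes and list medians moved by more than the SD of the arrays in 108 of 301 comparisons. Changes of sign were counted for called values only, which here were those of Sox4, and none changed sign. Values that were not called did change sign under some settings, such as the median of the other Sox genes in 6 of 11. The causes were not tested. No paired analysis was possible because each genotype had a single RNA extract, so nothing was tested. Signal over background limits Sox4 in WT RNA, Id1, Sox13 and Sox12 most.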
